A study of Homo sapiens with 12 samples.

Results

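Interferon-stimulated genes are the genes that cells switch on when interferon binds its receptor, and 47 of them are described here in Huh7 cells given disulfiram, thalidomide or both drugs. They were chosen by name, with earlier results of these data known. The 47 gene symbols were matched through GENCODE 29 to the Ensembl identifiers of a deposited expression table of 59191 rows, and all 47 were found. Huh7 is an established human hepatocellular carcinoma cell line. The table holds 12 RNA sequencing libraries in 4 groups of 3: solvent control (DMSO), disulfiram, thalidomide, and disulfiram with thalidomide, called the combination. Disulfiram is an inhibitor of aldehyde dehydrogenases used against alcohol dependence, and thalidomide acts through cereblon, which selects substrates for a ubiquitin ligase. The units of the doses, how long the cells were treated and the sequenced strand were not stated in the labels. Their extraction text describes dissociated tissue and a single-cell kit, which does not match cell-line samples, so the library preparation is uncertain. The labels do not say either whether replicates came from separate cultures, so the p-values cover the spread between these libraries, which may be technical. All groups are the same cell line, with no other allele or agent named. Each of 9 listed hepatocyte or hepatoma markers, albumin (ALB) among them, was expressed in at least 1 group.

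Type I and type III interferons act through receptors that carry the kinases JAK1 and TYK2. These phosphorylate STAT proteins, and STAT2 and IRF9 are subunits of the resulting complex ISGF3. ISGF3 binds a DNA element called the interferon-stimulated response element (ISRE), whereas the response to interferon gamma works through a shorter element called the gamma-activated sequence (GAS). The proteins made in response block viruses at several steps: OAS enzymes and EIF2AK2 (PKR) sense double-stranded RNA and stop RNA and protein metabolism, IFIT proteins bind viral RNA ends, MX1 traps viral capsids and IFITM proteins hinder membrane fusion. Hepatocytes respond to interferon in this way, and hepatoma lines such as Huh7 are widely used to study it.

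The promoters of the members hold the letters of these elements often, as the following stretches show. RefSeq promoters (GRCh38.p14, the same coordinates as hg38, 250 bases before to 50 after a start site) were matched for 38 of the 47, DDX58 under its newer symbol RIGI. OAS2, GBP2, IRF7, IFIT2, PML, USP18, OASL, IFITM2 and TRIM22 were not matched. The ISRE was searched as GAAA, any 2 bases and GAAA, and the GAS as TTC, any 3 bases and GAA, on both strands, with overlapping matches allowed. An ISRE match was present in 27 of 38 members (71.1%) and in 3.57% of all 35116 promoters of the same length, or in a promoter of 4.38% of 27305 genes. A GAS match was present in 11 of 38 (28.9%), in 7.66% of all promoters and in a promoter of 9.38% of genes. Such a match is a description of the letters, not a binding site. Matches are in capitals, each stretch reads 5′ to 3′ along its gene's strand, and the genes shown are examples: GBP1, OAS3, PARP14 and IRF9, which had some of the largest differences, DTX3L for the match it shares with PARP9, ISG15 as the most abundant member, IFIT1 for its repeated match, IRF1 for a GAS match, and IFITM3, which has the letters and was not called.
DTX3L (ISRE, shared with PARP9, chr3:122564322-122564351, plus strand): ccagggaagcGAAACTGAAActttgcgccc
PARP14 (ISRE, chr3:122680800-122680829, plus strand): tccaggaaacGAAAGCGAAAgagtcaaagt
GBP1 (ISRE, chr1:89065316-89065345, minus strand): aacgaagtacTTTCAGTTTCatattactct
OAS3 (ISRE, chr12:112938321-112938350, plus strand): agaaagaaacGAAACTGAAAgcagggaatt
ISG15 (ISRE, chr1:1013362-1013421, plus strand): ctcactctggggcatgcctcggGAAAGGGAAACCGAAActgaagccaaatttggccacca
IFIT1 (ISRE, chr10:89392503-89392532, plus strand): ttagTTTCACTTTCcccTTTCGGTTTCcct
IFITM3 (ISRE, chr11:320885-320914, minus strand): agGAAAAGGAAActgttgaGAAACCGAAAc
IRF9 (GAS, chr14:24161191-24161220, plus strand): gaccacgtgatTTCTGGGAAaaggccctcc
IRF1 (GAS, chr5:132490864-132490923, minus strand): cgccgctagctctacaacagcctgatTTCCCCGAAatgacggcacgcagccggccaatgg

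Many interferon-stimulated genes rose with disulfiram, with and without thalidomide, and none passed the threshold with thalidomide alone. Values are TPM, a length-scaled share of all transcripts, so levels may be set side by side between genes. A log2 fold change is the difference of group means of log2(TPM + 1), given ± its standard error (SE), and it understates the change of genes with low TPM. A gene was tested if it reached 1 TPM in at least 3 of the 12 libraries, which kept 15352 genes, and it was called at an adjusted p below 0.05 in limma (two-sided, Benjamini-Hochberg over all genes tested). Of the 47 members 37 were tested, and 10 (IFI44L, IFI35, XAF1, IFI44, SAMD9, RSAD2, OASL, OAS2, TRIM22 and BST2) were too low. The members' summed level was 891 to 975 TPM in control libraries, 1378 to 1386 with disulfiram, 812 to 1020 with thalidomide and 1180 to 1280 with the combination, and ISG15 made up the largest share of it in every group. The second disulfiram and second combination libraries stood apart within their groups by the GC content of the transcripts they held more or less of, and counts without them are given beside the GC content. Fewer cells that express a gene and less RNA of it per cell cannot be told apart in bulk samples.

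With disulfiram against control 17 of the 37 tested members rose and 0 fell, against 8.73% of all genes tested that rose and 4.52% that fell. The median log2 fold change was 0.56 over the tested members and 0.09 over all genes. The members were chosen with earlier results of these data known, so such shares describe the list and do not test it. With the combination against control 20 rose and 1 fell, against 18.4% and 6.7% of all genes, with a median of 0.65 for the members and 0.20 for all genes. With the combination against thalidomide, the comparison that shows disulfiram in the presence of thalidomide, 24 rose and 1 fell, against 25.0% and 7.24% of all genes (medians 0.59 and 0.22). Members that reach the filter only where they are high had to differ, as with IFIT1, IFIT2, IFIT3, DDX58 and DDX60, which reached 1 TPM only in libraries with disulfiram, so the count was repeated on the 27 members that reached 1 TPM in all 3 control libraries. Of these 27, 14 rose with disulfiram, 14 rose and 1 fell with the combination against control, and 18 rose and 1 fell with the combination against thalidomide. Of all genes that met the same condition 8.25%, 18.2% and 26.0% rose. Among all genes 1340 rose and 694 fell with disulfiram, 2823 and 1029 with the combination against control, and 3834 and 1112 against thalidomide. Median-of-ratios scaling removed the shift of the all-gene median (0.09, 0.20 and 0.22) and turned this balance to 704 higher and 1050 lower, 1213 and 2139, and 1600 and 2400. The members were then 13 higher and 0 lower, 18 and 1, and 16 and 1.

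With thalidomide against control 0 of 37 members passed, as did 0.0% of all genes (limma). At an unadjusted p below 0.05 there were 2 members and 873 genes, and the smallest adjusted p of a member was 0.806. The members' median was -0.06 and that of all genes -0.03. The map of the 37 tested members shows the disulfiram and combination columns darker than the others in most rows.

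**Figure D1:**
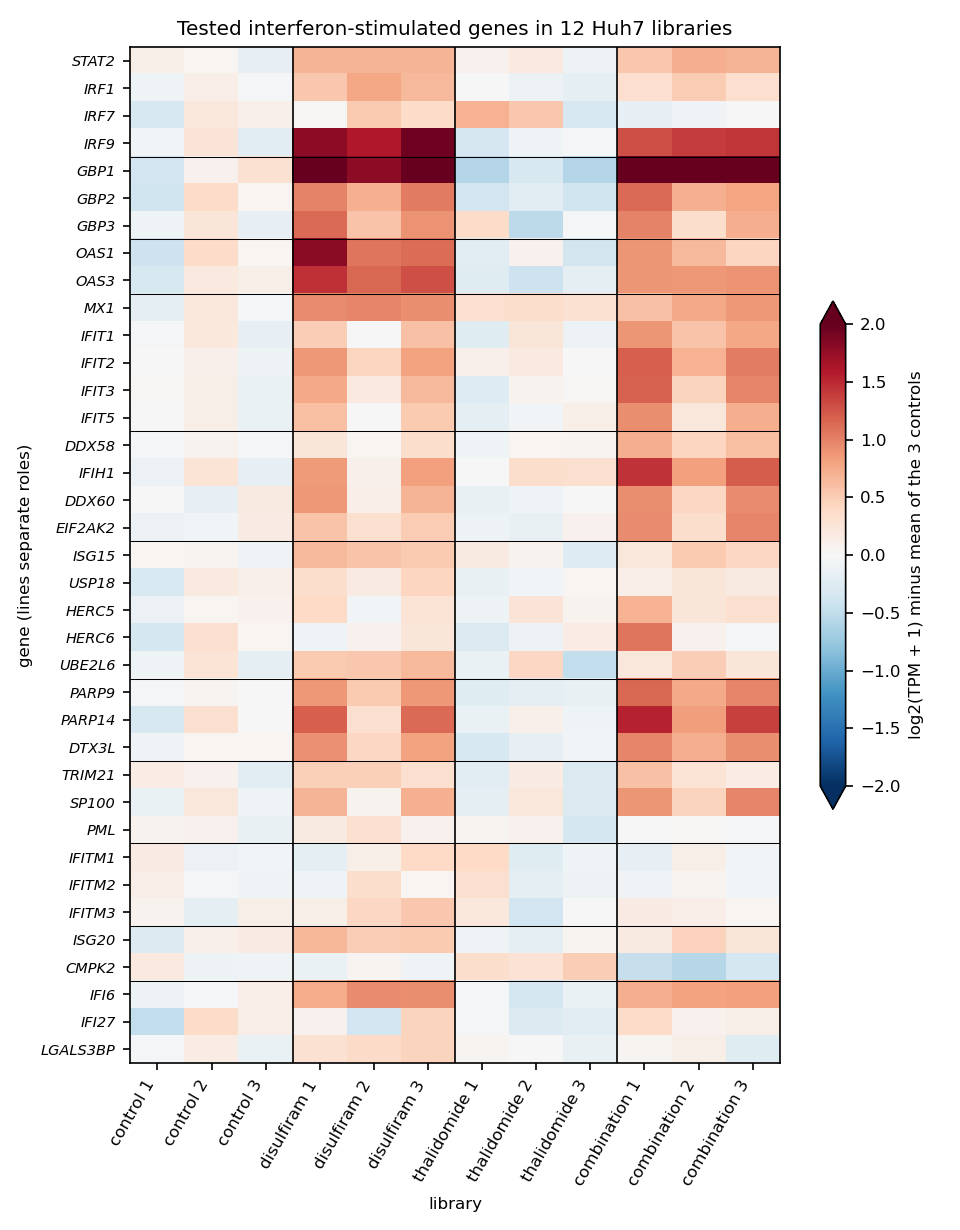
Each row is a tested interferon-stimulated gene, each column 1 of the 12 libraries, and the colour is log2(TPM + 1) minus the mean of the 3 control libraries, with values beyond 2 in either direction drawn at the end of the scale. GBP1 and IRF9 are the darkest rows in the disulfiram and combination libraries, the IFITM rows stay pale in all 12, and the second disulfiram and combination libraries are paler than their group mates in rows from IFIT1 to EIF2AK2.

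Among the transcription factors of the response STAT2, IRF9 and IRF1 rose and IRF7 was near the limit of detection. IRF9, the DNA-binding subunit of ISGF3, was at 7.87, 10.0 and 6.92 TPM in control libraries and at 30.9, 26.7 and 34.4 TPM with disulfiram. It was at 6.24, 7.64 and 8.05 TPM with thalidomide and at 21.5, 23.3 and 23.8 TPM with the combination. All 6 libraries that received disulfiram lay above all 6 that did not. The log2 fold change of IRF9 was 1.78 ± 0.14 with disulfiram (adjusted p = 3.7e-05), 1.38 ± 0.14 with the combination against control (adjusted p = 0.000188) and 1.53 ± 0.14 against thalidomide (adjusted p = 7.2e-05). The annotated gene AL136295.5 (mean 9.11 TPM) shares exon sequence with IRF9 on the same strand, so how reads were divided between them is uncertain.

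STAT2, the partner of IRF9 in ISGF3, was at 16.5, 15.4 and 13.4 TPM in control libraries and at 24.7, 24.7 and 24.6 TPM with disulfiram. With thalidomide it was at 16.0, 17.3 and 13.9 TPM, and with the combination at 22.3, 25.4 and 24.6 TPM. The ranges with and without disulfiram did not overlap, and the disulfiram and combination ranges did. Its log2 fold change was 0.68 ± 0.11 (adjusted p = 0.00208), 0.65 ± 0.11 (0.00266) and 0.59 ± 0.11 (0.00317) with disulfiram, with the combination against control and with the combination against thalidomide. IRF1, a factor that interferon gamma induces early, was at 35.7, 41.3 and 36.6 TPM in control libraries and at 55.5, 65.5 and 60.1 TPM with disulfiram. Thalidomide libraries held 37.5, 34.6 and 32.8 TPM of IRF1 and combination libraries 48.1, 54.1 and 47.9 TPM, so the combination lay between the other ranges with no overlap. IRF1 rose by 0.66 ± 0.10 (adjusted p = 0.00134), 0.39 ± 0.10 (0.0145) and 0.50 ± 0.10 (0.00391). The combination call of IRF1 against control was lost without control 1 (adjusted p = 0.0543), with quantile normalization (0.0614) and with median-of-ratios scaling (0.384). Against thalidomide median-of-ratios scaling ended the calls of STAT2 (0.0625) and IRF1 (0.173). IRF7, the amplifier of type I interferon production, was at 0.12, 0.62 and 0.49 TPM in control libraries, 0.41, 1.0 and 0.79 with disulfiram, 1.26, 1.02 and 0.12 with thalidomide and 0.25, 0.32 and 0.40 with the combination. These groups overlapped except for the combination and disulfiram, and no test of IRF7 passed (0.30 ± 0.26 with disulfiram, adjusted p = 0.501), except that without thalidomide 3 it was lower in the combination than with thalidomide (0.0395). IRF7 reached 1 TPM only in disulfiram 2 and thalidomide 1 and 2. That fit thus kept only the thalidomide libraries through which the filter admitted the gene, and no conclusion is drawn from it.

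The largest rise among the members was that of GBP1, which encodes a guanylate-binding protein, a large GTPase that coats intracellular pathogens. GBP1 was at 1.67, 2.67 and 3.27 TPM in control libraries and at 21.5, 10.98 and 18.4 TPM with disulfiram. It was at 1.32, 1.79 and 1.31 TPM with thalidomide and at 22.9, 13.9 and 22.5 TPM with the combination. The mean was 6.68 times that of the controls with disulfiram and 7.79 times with the combination, and the lowest library with disulfiram held more than 3 times the highest without it. The log2 fold changes were 2.32 ± 0.26 (adjusted p = 0.000306), 2.55 ± 0.26 (0.000168) and, for the combination against thalidomide, 3.04 ± 0.26 (4.38e-05). GBP2 lies beside it on chromosome 1 and was at 11.9, 20.9 and 16.5 TPM in control libraries and 33.0, 26.8 and 34.1 TPM with disulfiram. Its thalidomide values were 12.0, 13.7 and 12.0 TPM and its combination values 36.4, 27.0 and 28.4 TPM. Here too no library with disulfiram overlapped one without it (0.92 ± 0.18, adjusted p = 0.00702; 0.88 ± 0.18, 0.00691; 1.21 ± 0.18, 0.00113).

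GBP3, the third GBP gene of this cluster (chr1:89006666-89150456), was low, with means of 0.87 TPM in control libraries and 2.44 TPM with disulfiram. It passed with disulfiram (0.87 ± 0.25, adjusted p = 0.0409) and for the combination against thalidomide (0.75 ± 0.25, 0.0398), and was at 0.69 ± 0.25 for the combination against control (0.0631). The disulfiram call was lost without any 1 of control 1, 2 or 3, disulfiram 1 or 3, thalidomide 3 or combination 3 (adjusted p = 0.0524 to 0.135), and that against thalidomide without control 1, disulfiram 3, thalidomide 2 or 3 or combination 1 or 3 (0.0505 to 0.146). GBP genes are paralogs of similar sequence, and reads may be shared among them.

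Of the 2'-5'-oligoadenylate synthetases, whose product activates the ribonuclease RNase L, OAS1 and OAS3 were expressed and rose with disulfiram. OAS1 was at 5.65, 10.5 and 8.13 TPM in control libraries, 30.0, 17.5 and 18.3 TPM with disulfiram, 6.62, 8.38 and 5.89 TPM with thalidomide and 15.3, 12.9 and 10.97 TPM with the combination. The disulfiram libraries lay highest, the combination libraries next, and both ranges lay above all libraries without disulfiram. OAS1 rose by 1.33 ± 0.23 with disulfiram (adjusted p = 0.00397) and by 0.82 ± 0.23 for the combination against thalidomide (0.0225), and was at 0.65 ± 0.23 for the combination against control (0.0596). The combination call against thalidomide was lost without thalidomide 1 (0.0699), thalidomide 3 (0.0617) or combination 1 (0.0879), and with median-of-ratios scaling (0.0697) or quantile normalization (0.0982).

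OAS3 was at 6.91, 10.2 and 9.71 TPM in control libraries and at 26.0, 20.8 and 23.0 TPM with disulfiram. It was at 7.29, 6.34 and 7.55 TPM with thalidomide and at 17.1, 16.8 and 17.3 TPM with the combination. The 3 combination libraries thus lay between the disulfiram libraries and the rest. OAS3 rose in all 3 comparisons (1.3 ± 0.14, adjusted p = 0.000212; 0.88 ± 0.14, 0.00213; 1.17 ± 0.14, 0.000315), and kept its call under every alternative tried. OAS2, between OAS3 and the end of the same cluster on chromosome 12 (chr12:112906777-113011723), reached at most 0.12 TPM. OASL, a relative without synthetase activity, was at 0.06, 0.21 and 0.18 TPM in control libraries and 0.82, 0.53 and 0.55 TPM with disulfiram. Its combination libraries held 0.32, 0.49 and 0.40 TPM and its thalidomide libraries 0.24, 0.09 and 0.03 TPM. It was too low to be tested, and these ranges did not overlap between libraries with and without disulfiram.

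PARP9, DTX3L and PARP14 lie together on chromosome 3 (chr3:122527924-122730840), and all 3 rose in each of the 3 comparisons. PARP9 and the ubiquitin ligase DTX3L form a complex, and PARP14 is a mono-ADP-ribosyltransferase. PARP9 was at 7.78, 8.37 and 8.0 TPM in control libraries, 15.6, 12.1 and 15.5 TPM with disulfiram, 6.68, 7.03 and 7.15 TPM with thalidomide and 19.2, 14.3 and 16.8 TPM with the combination. DTX3L was at 7.58, 8.29 and 8.3 TPM in control libraries, 16.1, 11.1 and 14.8 TPM with disulfiram, 6.26, 7.05 and 7.76 TPM with thalidomide and 16.8, 14.01 and 16.3 TPM with the combination. Both genes had similar levels in each library, and in neither gene did a library with disulfiram overlap one without it. PARP9 rose by 0.76 ± 0.13 (adjusted p = 0.00313), 0.96 ± 0.13 (0.000922) and 1.15 ± 0.13 (0.000211), and DTX3L by 0.71 ± 0.14 (0.00696), 0.88 ± 0.14 (0.00223) and 1.06 ± 0.14 (0.000569).

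PARP9 and DTX3L point away from each other, and both RefSeq promoters contain the same ISRE match at chr3:122564332-122564341. It covers bases -6 to 4 around the DTX3L start and -41 to -32 before that of PARP9. Their exons overlap on opposite strands in the annotation, and without strand information reads there cannot be assigned to one or the other. PARP14 was at 1.72, 3.24 and 2.45 TPM in control libraries and 6.84, 3.28 and 6.47 TPM with disulfiram. It was at 2.1, 2.68 and 2.2 TPM with thalidomide and 8.96, 5.12 and 7.77 TPM with the combination. The second disulfiram library, at 3.28 TPM, was only just above the highest control. PARP14 rose by 0.89 ± 0.26 with disulfiram (adjusted p = 0.0412), by 1.25 ± 0.26 with the combination against control (0.00699) and by 1.29 ± 0.26 against thalidomide (0.00495). The disulfiram call was lost without control 1 or 3, disulfiram 1 or 3, thalidomide 1 or 3 or combination 3 (adjusted p = 0.0521 to 0.147).

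**Figure D2:**
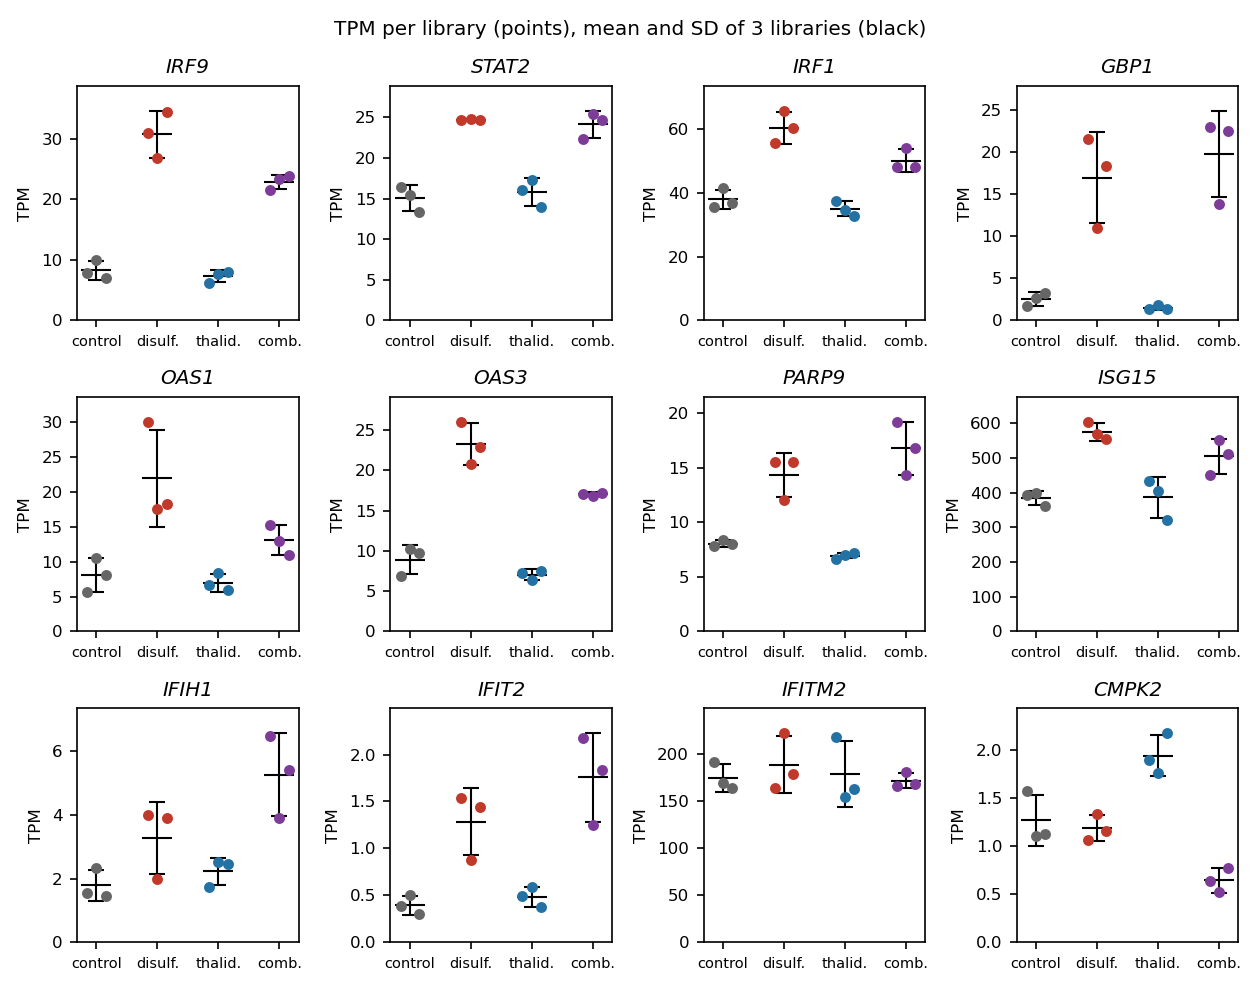
TPM of 12 interferon-stimulated genes in every library, by group (points), with the mean and SD of the 3 libraries in black and each axis starting at 0. IRF9, STAT2, GBP1, OAS3 and PARP9 are separated between libraries with and without disulfiram, IFITM2 overlaps in all groups, and CMPK2 is lowest in the combination.

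MX1 and the IFIT genes, which encode proteins that bind viral nucleoproteins and viral RNA, were expressed at a few TPM or less. MX1 was at 0.86, 1.49 and 1.11 TPM in control libraries, 3.1, 3.21 and 3.07 TPM with disulfiram, 1.69, 1.74 and 1.65 TPM with thalidomide and 2.21, 2.61 and 2.91 TPM with the combination. The 4 groups did not overlap, in the order control, thalidomide, combination and disulfiram. MX1 rose with disulfiram (0.95 ± 0.14, adjusted p = 0.00177) and with the combination against control (0.74 ± 0.14, 0.00583, but 0.0616 with quantile normalization). It was at 0.40 ± 0.14 for the combination against thalidomide (0.0505) and at 0.33 ± 0.14 for thalidomide against control (0.855).

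IFIT2 was at 0.39, 0.50 and 0.30 TPM in control libraries and at 1.54, 0.88 and 1.44 TPM with disulfiram. It was at 0.49, 0.59 and 0.38 TPM with thalidomide and at 2.18, 1.25 and 1.84 TPM with the combination. No library with disulfiram overlapped one without it. However, IFIT2 reached 1 TPM only in libraries with disulfiram, so the filter admitted it through groups where it was high. It rose in all 3 comparisons (0.70 ± 0.18, adjusted p = 0.025; 0.97 ± 0.18, 0.00472; 0.88 ± 0.18, 0.00574). The disulfiram call was lost without control 1 or 3 or disulfiram 1 or 3 (0.0679 to 0.0877). LIPA, a lysosomal lipase gene on the opposite strand at a mean of 26.0 TPM, overlaps IFIT2 exons, and without strand information the reads cannot be told apart. IFIT3 was at 0.56, 0.68 and 0.40 TPM in control libraries, 1.6, 0.76 and 1.43 with disulfiram, 0.29, 0.62 and 0.57 with thalidomide and 2.5, 1.09 and 2.04 with the combination.

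The second disulfiram library of IFIT3 sat close to the controls, and IFIT3 passed only with the combination, against control (0.87 ± 0.22, adjusted p = 0.0175) and against thalidomide (0.92 ± 0.22, 0.0111), with 0.53 ± 0.22 for disulfiram (0.137). IFIT1 likewise passed in the combination, at 0.74 ± 0.21 against control (0.0255) and 0.77 ± 0.21 against thalidomide (0.0179), with 0.36 ± 0.21 for disulfiram (0.298). IFIT5 passed against thalidomide alone (0.67 ± 0.21, 0.0341), with 0.63 ± 0.21 for the combination against control (0.0501). Like IFIT2, IFIT1 and IFIT3 reached 1 TPM only in libraries with disulfiram, so the filter admitted them through groups where they were high. The calls of IFIT1, IFIT3 and IFIT5 depended on single libraries. Against control, IFIT1 was lost without control 1 or 3 or combination 1 or 3 (adjusted p = 0.0705 to 0.0926) and IFIT3 without control 3 or combination 1 or 3 (0.059 to 0.0768), and with quantile normalization both were lost (0.12 and 0.0587). Against thalidomide, IFIT1 was lost without thalidomide 1 or combination 1 or 3 (0.0603 to 0.0711), IFIT3 without combination 1 (0.0515) and IFIT5 without thalidomide 1 or 2 or combination 1 or 3 (0.0715 to 0.135).

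The members listed as cytoplasmic RNA sensors and their partners were the helicase genes IFIH1, DDX58 and DDX60 and the kinase gene EIF2AK2, and none of these passed with disulfiram alone. IFIH1 (MDA5), which binds long double-stranded RNA, was at 1.55, 2.35 and 1.47 TPM in control libraries and at 3.99, 1.98 and 3.89 TPM with disulfiram. It was at 1.74, 2.51 and 2.45 TPM with thalidomide and at 6.49, 3.89 and 5.4 TPM with the combination. Of the libraries with disulfiram, only the second disulfiram library lay within the range of the controls. IFIH1 was at 0.60 ± 0.23 with disulfiram (adjusted p = 0.115), and it rose with the combination against control (1.16 ± 0.23, 0.00641) and against thalidomide (0.94 ± 0.23, 0.0125). The call against thalidomide was lost without thalidomide 1 (0.0532) or combination 1 (0.0566).

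DDX58 reached 1 TPM only in the 3 combination libraries, and DDX60 only in disulfiram 1 and combination 1 and 3, so the filter admitted both through groups where they were high. DDX58 was not tested when any 1 combination library was left out, nor was DDX60 when disulfiram 1 or combination 1 or 3 was left out. With no filter both calls of the combination against control were kept (adjusted p = 0.0214 for DDX58 and 0.0461 for DDX60). The helicase gene DDX58 (RIG-I) rose from a mean of 0.54 to 1.32 TPM with the combination (0.59 ± 0.15, adjusted p = 0.0198), and was at 0.21 ± 0.15 with disulfiram (0.41). DDX60, a helicase that assists it, had 0.76 ± 0.22 (0.0288) and 0.57 ± 0.22 (0.118), and the kinase gene EIF2AK2 0.76 ± 0.18 (0.0122) and 0.46 ± 0.18 (0.107). Against thalidomide the values were 0.58 ± 0.15 (0.017), 0.84 ± 0.22 (0.0163) and 0.81 ± 0.18 (0.00749). Without control 1 or 3 the call of DDX58 against control was lost (0.0584 and 0.0578), without control 1 or 2 that of DDX60 (0.0738 and 0.0805), and without combination 1 or 3 that of EIF2AK2 (0.0543 and 0.0604). Against thalidomide those of DDX58 (0.0611) and DDX60 (0.0549) were lost without thalidomide 1. EIF2AK2 shares exon sequence with GPATCH11 (mean 2.09 TPM) on the opposite strand. That these genes passed with the combination and not with disulfiram does not show that disulfiram and the combination differ. Quantile normalization ended the calls of DDX58 (0.166), DDX60 (0.213) and EIF2AK2 (0.0597) against control.

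ISG15, a ubiquitin-like protein that is attached to other proteins, was the most abundant member and rose, while its conjugation enzymes did not pass. ISG15 was at 394, 398 and 362 TPM in control libraries and at 603, 568 and 554 TPM with disulfiram. It was at 434, 404 and 321 TPM with thalidomide and at 452, 551 and 512 TPM with the combination. The disulfiram libraries were above all others, and the combination libraries were above all controls and thalidomide libraries. ISG15 rose by 0.58 ± 0.11 (adjusted p = 0.00518), 0.39 ± 0.11 (0.0242) and 0.39 ± 0.11 (0.0196). With median-of-ratios scaling no comparison passed (0.0549, 0.45 and 0.531). The combination call against control was also lost without control 1 or 3 or combination 2 or 3 (0.0516 to 0.081), and that against thalidomide without thalidomide 3 (0.0519) or combination 3 (0.0653).

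Of its conjugation system, UBE2L6, the E2 enzyme, was at 57.7, 75.0 and 54.0 TPM in control libraries and at 88.6, 89.9 and 96.6 TPM with disulfiram. Thalidomide libraries held 56.4, 82.0 and 43.4 TPM and combination libraries 72.0, 87.5 and 73.1 TPM. The disulfiram libraries lay above all others, and the call was missed at 0.57 ± 0.19 (adjusted p = 0.0727). It passed without thalidomide 2 (0.0218) or thalidomide 3 (0.0347), and with the compared groups alone in the fit (0.0343). HERC5, the E3 ligase, and its relative HERC6 did not pass (0.20 ± 0.18 and 0.09 ± 0.28 with disulfiram), nor did USP18, which removes ISG15 and dampens the interferon receptor (0.32 ± 0.15, 0.185).

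IFITM1, IFITM2 and IFITM3, membrane proteins that hinder viral entry, were abundant and did not pass in any comparison, though with array weights IFITM3 passed with disulfiram (adjusted p = 0.0373). IFITM2 was at 192, 170 and 164 TPM in control libraries, 164, 222 and 179 TPM with disulfiram, 219, 154 and 163 TPM with thalidomide and 166, 181 and 168 TPM with the combination. IFITM3 was at 39.8, 32.7 and 41.2 TPM in control libraries, 40.9, 50.5 and 55.3 TPM with disulfiram, 43.7, 28.6 and 38.0 TPM with thalidomide and 42.5, 41.4 and 39.0 TPM with the combination. IFITM1 was at 23.4, 19.1 and 20.01 TPM in control libraries, 17.9, 22.6 and 27.5 TPM with disulfiram, 27.8, 17.4 and 19.4 TPM with thalidomide and 18.5, 22.6 and 19.99 TPM with the combination. All groups overlapped in all 3 genes. With disulfiram the log2 fold changes were 0.10 ± 0.18 for IFITM1 (adjusted p = 0.768), 0.10 ± 0.14 for IFITM2 (0.686) and 0.36 ± 0.15 for IFITM3 (0.154), and IFITM1 and IFITM2 were at -0.02 and -0.03 with median-of-ratios scaling. The 3 genes are close paralogs on chromosome 11, and IFITM1 and IFITM2 share exon sequence on the same strand, so reads may be divided wrongly among them. IFITM1 and IFITM3 carry ISRE letters in their promoters. With disulfiram 11 of 15 members that rose and 11 of 16 other tested members had a match.

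IFI6, a mitochondrial antiviral protein, was at 30.3, 32.0 and 35.7 TPM in control libraries and at 55.1, 63.9 and 63.3 TPM with disulfiram. It was at 31.6, 25.2 and 29.6 TPM with thalidomide and at 54.4, 57.4 and 58.4 TPM with the combination. No library with disulfiram overlapped one without it. IFI6 rose in all 3 comparisons (0.88 ± 0.10, adjusted p = 0.00037; 0.78 ± 0.10, 0.000877; 0.96 ± 0.10, 0.000172) and kept its call under every alternative tried.

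CMPK2, a mitochondrial nucleotide kinase, was the member that fell. It was at 1.58, 1.11 and 1.13 TPM in control libraries, 1.07, 1.34 and 1.16 TPM with disulfiram, 1.9, 1.76 and 2.18 TPM with thalidomide and 0.64, 0.52 and 0.78 TPM with the combination. The combination libraries were below all others and the thalidomide libraries above all others. CMPK2 fell by 0.84 on the log2 scale in the combination against thalidomide (SE 0.15, adjusted p = 0.00282), a call kept under every alternative that tested it (not tested at a mean TPM of at least 5). Against control it fell by 0.46 (SE 0.15, adjusted p = 0.0415), a call lost without any 1 of 8 libraries (control 1, 2 or 3, disulfiram 3, thalidomide 1, combination 1, 2 or 3; 0.0511 to 0.136), and with the GC correction (0.0525). The interaction, which asks whether the effects of the drugs add on the log2 scale, was -0.79 ± 0.21 and did not pass (adjusted p = 0.466). RSAD2 (viperin), its neighbour and overlapping gene on chromosome 2, reached at most 0.25 TPM in any library.

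Of the other members, ISG20, an exonuclease, rose with disulfiram (0.56 ± 0.13, adjusted p = 0.0145, lost without control 1 at 0.0533 or disulfiram 1 at 0.0554) and against thalidomide (0.37 ± 0.13, 0.0441). LGALS3BP, a secreted glycoprotein, rose with disulfiram (0.38 ± 0.11, 0.0449), and was at -0.02 ± 0.11 and 0.01 ± 0.11 in the combination comparisons. SP100, a component of nuclear bodies, rose with the combination (0.77 ± 0.21 against control, 0.0238, and 0.86 ± 0.21 against thalidomide, 0.0126), whereas PML, their organizer, did not pass (0.19 ± 0.13 with disulfiram). TRIM21, an antibody receptor in the cytosol, passed against thalidomide alone (0.45 ± 0.16, 0.0482). Each of these calls was lost on leaving out single libraries. Those were 8 of 12 for LGALS3BP (control 1 or 3, disulfiram 1, 2 or 3, thalidomide 1 or 2, combination 1; 0.0529 to 0.152). For SP100 they were control 1 or 3 or combination 1 or 3 against control (0.0714 to 0.0952) and combination 3 against thalidomide (0.0567). For TRIM21 any library except control 3 or thalidomide 2 ended the call (0.0517 to 0.186). For ISG20 against thalidomide any of control 2, disulfiram 3, thalidomide 1 or 2 or combination 1, 2 or 3 did so (0.0547 to 0.122). IFI27 did not pass (0.05 ± 0.25 with disulfiram). Among members too low to test, IFI44, IFI44L and XAF1 reached at most 0.11 TPM. SAMD9 was at 0.04, 0.02 and 0.08 TPM in control libraries and 0.21, 0.1 and 0.16 TPM with disulfiram, without overlap. All untested members except SAMD9 and OASL overlapped between disulfiram and control. How often other genes this low do not overlap was not computed.

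The comparisons of disulfiram with control and of the combination with thalidomide share no library, so their group means come from separate libraries. Their calls do not, since all 12 libraries were in the same fit and share an estimate of the spread. Of the 17 members that rose with disulfiram against control, 15 also rose with the combination against thalidomide (88.2%). These 15 were 62.5% of the 24 that rose there. The same overlap among all genes was not computed, so 88.2% cannot be read as particular to the members. Of all genes 25.0% rose with the combination against thalidomide, a share not limited to genes that rose with disulfiram. LGALS3BP and MX1 were called in the first of these comparisons alone. DDX58, DDX60, EIF2AK2, IFIH1, IFIT1, IFIT3, IFIT5, SP100 and TRIM21 were called in the second alone. Across the 37 tested members the log2 fold changes correlated at a Pearson's r of 0.84 and a Spearman's rho of 0.78, against 0.60 and 0.55 across all 15352 genes. The points are genes, not independent replicates.

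**Figure D3:**
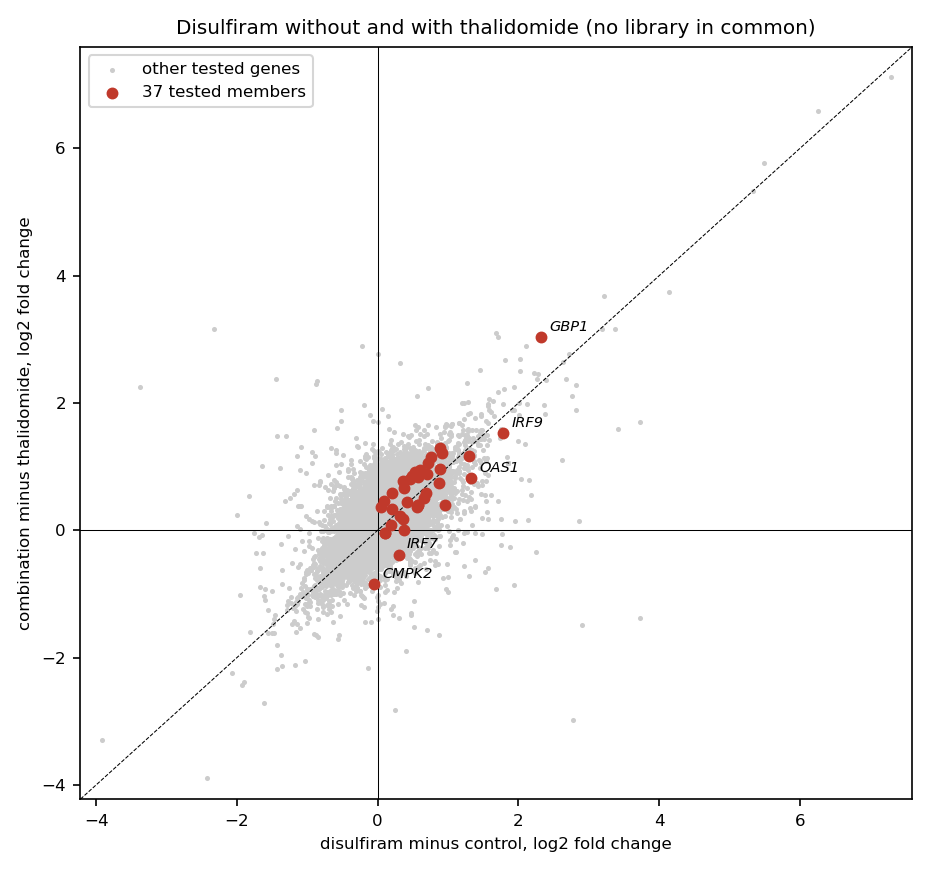
Log2 fold change with disulfiram against control (x axis) and with the combination against thalidomide (y axis) for the 37 tested members (red) and all other tested genes (grey), with the dashed line marking equal change. Most members lie in the upper right quadrant, led by GBP1 (2.32 and 3.04) and IRF9 (1.78 and 1.53), and CMPK2 is lowest on the y axis (-0.84).

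No member passed the threshold between the combination and disulfiram, except with array weights, where 2 were higher and 6 lower, against 16.5% and 6.51% of all genes. Without such weights 0 of 37 passed, with 0.0% of all genes higher and 0.00651% lower (limma), and 8 members were at an unadjusted p below 0.05. The smallest adjusted p of a member was 0.256, for LGALS3BP (-0.40 ± 0.11). OAS1 was at -0.68 ± 0.23 (0.265), OAS3 at -0.42 ± 0.14 (0.26), IRF9 at -0.40 ± 0.14 (0.265) and IRF1 at -0.27 ± 0.10 (0.265), and in each the combination libraries lay below all disulfiram libraries. IFIH1 was at 0.56 ± 0.23 and DDX58 at 0.37 ± 0.15 (both 0.274). The interaction passed for 0 of 37 members and 0.0% of all genes, with 4 members at an unadjusted p below 0.05 (smallest adjusted p 0.466).

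The differences between combination and disulfiram followed the GC content of the transcripts. Across members Spearman's rho between that difference and the GC content of the longest transcript was -0.74, and across 15042 genes -0.63. For disulfiram against control it was -0.10 and 0.00, and for the combination against control -0.52 and -0.44. Libraries within a group differed in the same manner, since the distance of genes from their group means tracked GC content, with a rho of 0.60 in the second disulfiram and 0.66 in the second combination library. Control libraries had -0.18 to 0.13 and the other libraries -0.59 to 0.48. The second disulfiram library was the lowest of its group for 22 of 37 members, whose median GC content was 43.3%, and the highest for 8 (54.0%). The second combination library was lowest for 19 (42.8%) and highest for 10 (54.2%). In the groups without disulfiram, the second control library was highest for 24 (47.2%) and lowest for 4 (51.1%). The second thalidomide library was highest for 15 (44.3%) and lowest for 10 (52.8%). The RNA sensor genes are among those poor in GC, with DDX60 at 39.1%, EIF2AK2 at 38.7%, DDX58 at 40.5% and IFIH1 at 43.3%.

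With a smooth trend on GC content removed from every library, IFIH1 (0.61, adjusted p = 0.0329), DDX60 (0.56, 0.037) and EIF2AK2 (0.46, 0.0258) passed with disulfiram against control, and DDX58 did not (0.21, 0.279). Against control the combination then kept IFIH1 (1.00, 0.00248) and EIF2AK2 (0.45, 0.021) and lost DDX58 (0.33, 0.0779) and DDX60 (0.46, 0.0576). The combination minus disulfiram difference became 0.39 for IFIH1, 0.12 for DDX58, -0.10 for DDX60 and -0.01 for EIF2AK2. For OAS1 (-0.67), IRF9 (-0.27) and LGALS3BP (-0.23) it stayed below 0. Across members the rho with GC content became -0.37. Across all genes it was 0.01, which the step fixes in advance, since it removes this trend. Any difference between groups that follows GC content is removed with it. In all, 21 members rose with disulfiram after this correction, against 13.0% of all genes, and 20 with the combination against control, against 22.2%. With the second disulfiram and second combination libraries removed, a choice made after seeing the data, 22 members of 35 tested rose with disulfiram (11.8% of all genes) and 21 with the combination against control (29.8%), with IFIH1 (0.0155), DDX60 (0.0202), EIF2AK2 (0.0318) and SP100 (0.0226) among the former.

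**Figure D4:**
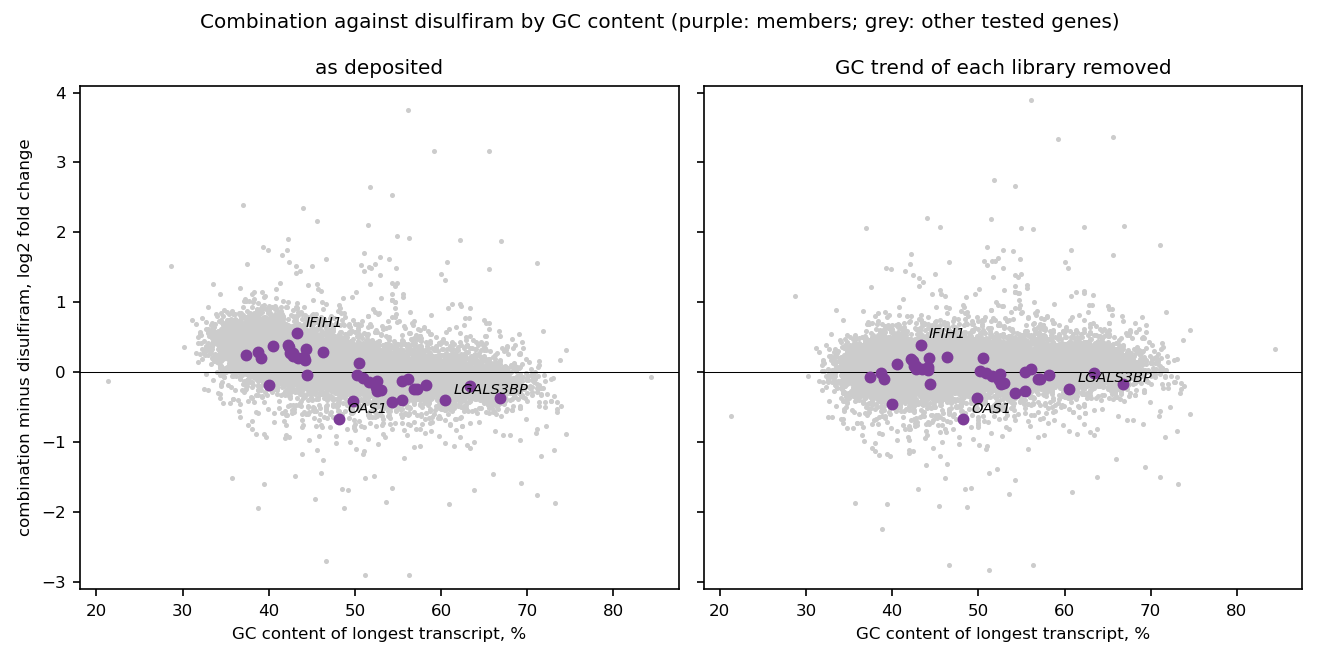
Log2 fold change of the combination against disulfiram (y axis) by GC content of the longest transcript in percent (x axis), for the tested members (purple) and other tested genes (grey), as deposited (left) and after removal of each library's trend on GC content (right). On the left the members slope downward (rho -0.74), on the right less so (rho -0.37), and OAS1 lies lowest in both (-0.68 and -0.67).

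Interferon genes themselves were at or near 0. Of 21 listed ligand genes of types I, II and III, 17 were listed at 0 in all 12 libraries, none was high enough to test, and the highest value was 0.23 TPM for IFNL3 in 1 disulfiram library. IFNB1 was listed at 0 in 11 libraries and at 0.08 TPM in the second disulfiram library.

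Receptor and JAK-STAT genes were expressed. Of 11 listed 10 were tested (all genes higher: 8.73% with disulfiram, 18.4% with the combination against control and 25.0% against thalidomide), and 4 rose with disulfiram (IFNGR2, TYK2, IL10RB and STAT3), 4 with the combination against control (IFNAR1, JAK1, IFNGR1 and TYK2) and 7 against thalidomide. The kinase gene TYK2 was at 67.8, 77.9 and 70.5 TPM in control libraries and 91.8, 118 and 106 TPM with disulfiram (0.54 ± 0.10, adjusted p = 0.00458), and rose with the combination (0.45 ± 0.10, 0.00925). JAK1 was at 0.26 ± 0.16 with disulfiram (0.308) and rose with the combination (0.56 ± 0.16, 0.0247). The type I receptor gene IFNAR1 was at 0.39 ± 0.22 with disulfiram (0.291) and 0.71 ± 0.22 with the combination (0.0385), and IFNAR2 at 0.13 ± 0.11 in both (0.484 and 0.391). IFNAR1 and JAK1 were lowest of their group in the second disulfiram and second combination libraries. Leaving out any 1 library kept the calls of IFNGR2 and TYK2 in these comparisons with control, and median-of-ratios scaling ended those of TYK2 (0.0594 and 0.253). Against control the call of JAK1 was lost without control 1 or 3 or combination 1 or 3 (0.0689 to 0.0924), of IFNAR1 without control 1, 2 or 3 or combination 1 or 3 (0.0563 to 0.146) and of IFNGR1 also without disulfiram 3 or thalidomide 3 (0.0504 to 0.162). With disulfiram that of IL10RB was lost without control 2 or 3 or disulfiram 1 or 3 (0.0535 to 0.0807) and of STAT3 without control 1 or 3 or disulfiram 3 (0.0629 to 0.0776).

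Of 8 negative regulators of the pathway 3 rose with disulfiram (all genes 8.73%), SOCS3 (0.88 ± 0.15, adjusted p = 0.00374), SOCS1 (0.84 ± 0.21, 0.0233) and the phosphatase gene PTPN6 (0.69 ± 0.09, 0.000931). With the combination 2 of 8 rose (all genes 18.4%), SOCS3 (0.78 ± 0.15, 0.00599) and PTPN6 (0.62 ± 0.09, 0.00172). Of 14 further nucleic acid sensing genes 7 were tested. With disulfiram 2 rose (all genes 8.73%), the kinase gene IKBKE (0.78 ± 0.15, 0.00665) and the adaptor gene TICAM1 (0.48 ± 0.13, 0.0321). With the combination 1 rose (all genes 18.4%), TBK1 (0.95 ± 0.27, 0.0285). The DNA sensor gene CGAS reached at most 0.3 TPM. Of 8 other interferon regulatory factors and proteins that bind them 6 were tested and 0 passed, with IRF3 at 232 ± 9.0 TPM in control libraries and 217 ± 15.2 TPM with disulfiram (SD, n = 3) and the IRF2-binding IRF2BP2 at 37.9 ± 1.64 and 47.4 ± 1.37 TPM. Of 34 other interferon-stimulated genes 24 were tested. With disulfiram 9 rose and 1 fell (all genes 8.73% and 4.52%), and with the combination against control 7 rose and 2 fell (18.4% and 6.7%). The largest were LAMP3, a lysosomal membrane protein gene (-1.0 ± 0.20, 0.00828, and -1.23 ± 0.20, 0.00263), TNFSF10 (TRAIL, 1.22 ± 0.26 with the combination, 0.00891), NMI, which encodes a STAT-binding protein (1.01 ± 0.23 with the combination, 0.0108), the chemokine gene CXCL10 (0.84 ± 0.25 with disulfiram, 0.0449) and the nuclear body gene SP110 (0.81 ± 0.21 with disulfiram, 0.0283). The medians of the tested genes of this list were 0.32 and 0.34, against 0.09 and 0.20 over all genes. Single libraries ended the calls of SOCS1 (control 1 or 2 or disulfiram 1 or 2; adjusted p = 0.0546 to 0.0936), TICAM1 (any control or disulfiram library; 0.0505 to 0.11), TBK1 (control 1 or 3 or combination 1 or 3; 0.0728 to 0.115), CXCL10 (any control or thalidomide library or combination 3; 0.0554 to 0.124) and SP110 (control 1 or 3 or disulfiram 1 or 3; 0.0885 to 0.11). Those of SOCS3, PTPN6, IKBKE, LAMP3, TNFSF10 and NMI held without any 1 library.

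The summed level of the 9 hepatocyte or hepatoma markers was 11300 to 12610 TPM in the controls, 9300 to 10400 with disulfiram, 10590 to 12920 with thalidomide and 8911 to 9284 with the combination, so the groups with disulfiram lay below the controls. Some marker lists of other cell types also moved with the groups. Of 5 markers of plasmacytoid dendritic cells, the main producers of interferon alpha, CLEC4C and LILRA4 were at 0 in every library. The list summed to 4.18 to 4.36 TPM in control libraries, 6.5 to 7.94 with disulfiram, 3.77 to 5.59 with thalidomide and 6.62 to 10.5 with the combination, from 2 of 5 genes above 1 TPM (IL3RA and TCF4). Of 4 endothelial markers only PECAM1 reached 1 TPM, and the sums were 0.79 to 1.55 TPM, 3.52 to 7.42, 1.66 to 2.51 and 3.83 to 5.43 in the same order. Of 10 leukocyte markers 3 reached 1 TPM (CD3D, CD14 and LYZ), MS4A1 was at 0, and the sums were 118 to 179 TPM in control libraries, 76.6 to 150 with disulfiram, 123 to 172 with thalidomide and 102 to 107 with the combination, below all controls. Fibroblast sums overlapped between groups (37.2 to 47.3, 35.7 to 55.9, 34.3 to 59.7 and 37.3 to 49.2 TPM). The part of these in the rise of the interferon-stimulated genes was not tested. Depth is unknown for a table of TPM, and 13693 to 15038 genes per library reached 1 TPM.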

How the data were processed

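The authors deposited 1 table of TPM for 12 Huh7 libraries. The submitters' processing notes name HISAT2 2.0 and StringTie 1.3.0 as tools and hg38 as build, with annotation, strand and filters not given in the sources used here. The extraction text in the labels describes dissociated tissue and a single-cell kit, which does not match a table of 12 cell-line samples, so the library preparation is uncertain. Of 59191 rows, 58611 identifiers matched GENCODE 29. Groups followed the sample titles, 3 libraries each.

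From the TPM, log2(TPM + 1) was fitted in limma 3.58.1 (R 4.3.3, mean-variance trend) with all 12 libraries and no block, for genes at 1 TPM or more in at least 3 libraries. The fit was first run on simulated data with independent noise for each gene and no trend on GC content. That run does not cover the GC pattern of these libraries. For the GC correction a lowess trend (span 0.3) on the GC content of the longest transcript was subtracted from each library. Alternatives were a pseudocount of 0.1, no filter, a mean TPM of at least 5, median-of-ratios and quantile scaling, the compared groups alone, the replicate block, array weights, the GC correction and each library left out. The replicate numbers were checked for pairing.

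Members and lists were chosen with earlier results of these data known. Values in every library are given for STAT2, IRF9, IRF1 and IRF7, for the 8 largest rises and 4 largest falls past the threshold in disulfiram or combination against control and in combination against thalidomide, for members past it in the other comparisons, and for the 4 highest that passed in none. From each pathway list up to 5 genes past the threshold in disulfiram or combination against control were eligible, largest first, or the 2 of highest TPM where none passed, with JAK1, TYK2, IFNAR1, IFNAR2 and IFNB1 always included; 1 further gene named by this rule is not reported here. OASL, SAMD9, CGAS and IFNL3 are named outside this rule and were chosen after their values were seen. Depth is unknown, so no counting interval is given.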

Additional observations from a re-analysis of the deposited data

How the results depend on the processing

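No value of a member called in any comparison changed direction under any alternative. Called under every alternative that tested them were 11 of 17 members for disulfiram against control (STAT2, IRF1, IRF9, GBP1, GBP2, OAS1, OAS3, MX1, IFI6, PARP9 and DTX3L), 11 of 21 for the combination against control and 11 of 25 against thalidomide; the filter at a mean TPM of at least 5 did not test MX1, IFIT2, IFIH1, PARP14, CMPK2 and EIF2AK2. Leaving out each library in turn gave 12 to 19 members past the threshold with disulfiram, 13 to 22 with the combination against control, 15 to 25 against thalidomide, and 0 in each case in the other 3 comparisons. The low counts came without combination 3 (13 members higher against control, with 6.17% of all genes, and 15 higher and 1 lower against thalidomide, with 10.5%) and without combination 1 (14 higher and 1 lower against thalidomide, with 11.1%). With a mean TPM of at least 5 the combination had 11 members past the threshold against control and 14 against thalidomide, since only 20 members were then tested. With array weights 8 members passed in the combination against disulfiram, 2 higher and 6 lower, against 16.5% and 6.51% of all genes, and the cause was not tested. With quantile normalization 14 members rose with disulfiram (5.45% of all genes), 13 rose and 1 fell with the combination against control (8.17% rose), and 16 rose and 1 fell against thalidomide (1685 of 15352 genes rose). Deviations of same-numbered libraries correlated at -0.15 to 0.37, not all over 0.1, so pairing was not established. The pairs of disulfiram and combination libraries had 0.21, 0.37 and 0.03, and the third disulfiram library correlated more with the first combination library (0.12) than with its own number. The fit without the block was kept, and with the replicate number as a block 17 members rose with disulfiram (7.61% of all genes), 21 with the combination against control (17.1%), and 23 rose and 1 fell against thalidomide (23.5% rose). Under the block the calls of PARP14 with disulfiram (adjusted p = 0.0618), CMPK2 with the combination against control (0.0627) and ISG20 against thalidomide (0.0571) were lost, and those of UBE2L6 with disulfiram (0.0373) and GBP3 with the combination against control (0.0494) were gained. The depth of the libraries is unknown, and members under 1 TPM are coarse at 2 decimals.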
